A study of Macaca fuscata with 12 samples.

Results

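The receptors for glutamate, GABA and glycine were described on 12 Affymetrix rhesus macaque arrays hybridised with RNA from the cerebral cortex of Japanese macaques (Macaca fuscata). All probe sets that the array's gene table pairs with a single symbol of these families were taken, which gave 42 probe sets of 26 genes, out of 52766 probe sets tested. They comprised 4 AMPA probe sets of 2 genes, 6 NMDA probe sets of 4 genes, 3 kainate probe sets of 2 genes, 2 probe sets of the delta receptor GRID1, 1 metabotropic probe set (GRM7), 14 GABA-A probe sets of 11 genes and 11 glycine receptor probe sets of 4 genes. The last probe set belonged to GRID2IP, a scaffold protein that binds a delta receptor and is itself no receptor. The glycine receptors entered through the symbol pattern although they are neither glutamate nor GABA receptors. Subunits outside these 26 genes, both GABA-B subunits among them, were not analysed here.

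Each group held 3 arrays. The IPS trained group held cortex surrounding the intraparietal sulcus, IPS, of animals trained in tool use, all male, aged 5 years 7 months, 6 years 0 months and 5 years 1 month. The IPS control group held the same tissue from control males of 5 years 4 months, 5 years 10 months and 3 years 9 months. The SII trained group held tissue from around the lateral sulcus, with the secondary somatosensory cortex (SII), from trained males of 5 years 7 months and 5 years 1 month and a trained female of 3 years 10 months. The SII control group held this tissue from a control female of 4 years 6 months and control males of 5 years 4 months and 5 years 10 months. All tissue was from the left hemisphere. The 12 arrays came from 8 animals, 4 of which, all male, gave both regions. These were the animals of IPS trained 1 and SII trained 1, of IPS trained 3 and SII trained 3, of IPS control 1 and SII control 2, and of IPS control 2 and SII control 3.

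Fast excitation in cortex runs through AMPA and NMDA receptors, which are assembled from GRIA and GRIN subunits, with kainate receptors acting both before and after the synapse. Metabotropic receptors such as GRM7 act through G proteins, and GRM7 lowers transmitter release. Fast inhibition runs through GABA-A chloride channels, usually built of alpha, beta and a further subunit, and the alpha subunit sets much of their kinetics and drug binding.

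Each value is a log2 difference from the probe set's own median on the 12 arrays, so that it compares arrays for 1 probe set and carries no level that could be set against another gene. The number spacing of the deposited values gave a rough signal class. It was high (at least 256 in at least 11 arrays) for 4 of the 42 probe sets, middle (at least 16) for 18 and low for 16, and a further 4 carried the table's lowest value, the floor, in at least 2 arrays. The 22 probe sets of middle or high signal carry the description below. Their median SD within groups was 0.29 for the high and 0.42 for the middle class, against 0.78 for the low class.

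Several arrays stood apart. The hybridisation controls lay at 0.44 in IPS trained 3, 0.49 in SII trained 2 and 0.47 in SII control 1, against -0.14 to 0.08 in the other 9 arrays. SII trained 2 and SII control 1 are also the arrays of the female animals, so that sex and this reading cannot be told apart in SII. The 3' minus 5' difference of actin, a reading of RNA integrity, was -0.79, 0.54 and 1.37 in IPS trained arrays, 0.02, 0.23 and 0.05 in IPS control arrays, 1.17, 0.63 and -1.54 in SII trained arrays, and 0.25, -1.88 and -1.71 in SII control arrays. The labels number the arrays within each region and training group and give no hybridisation date. Any batch that ran along with region could not be told apart from it.

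**Figure D1:**
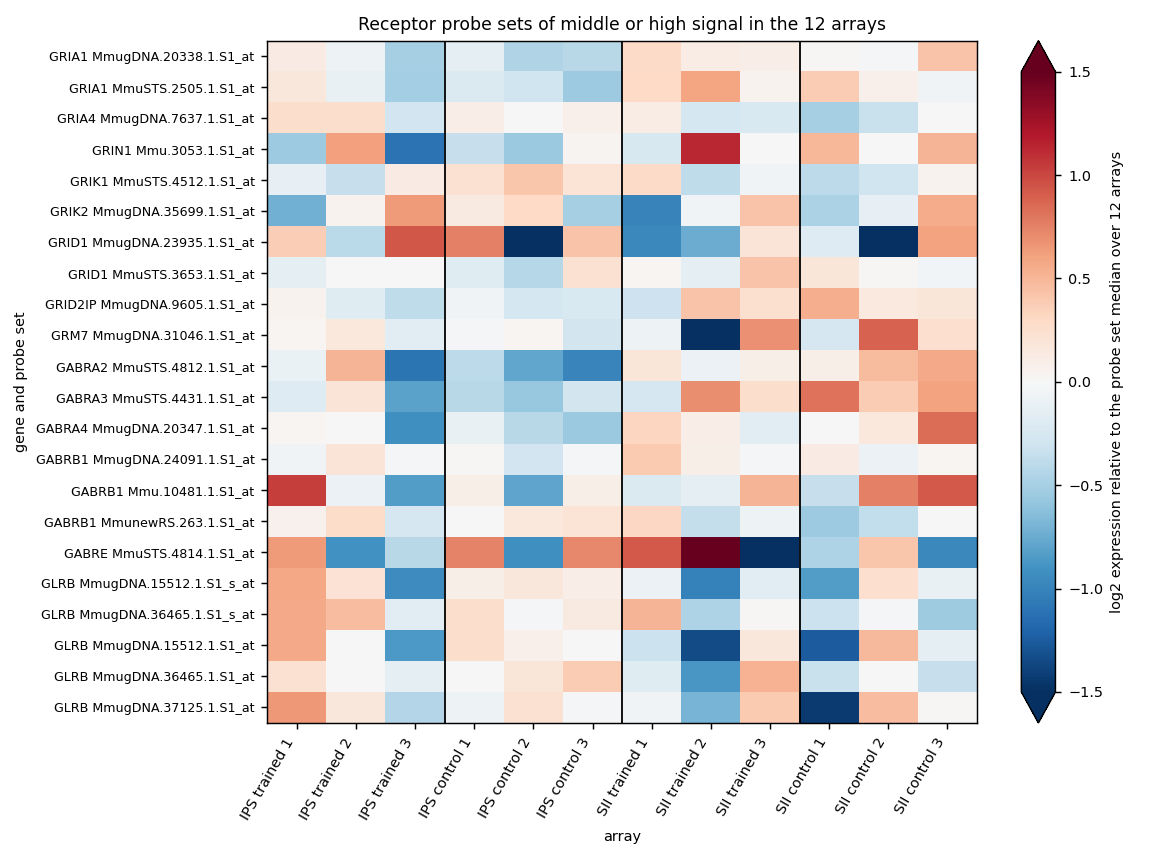
Log2 expression relative to each probe set's median (colour, limited at -1.5 and 1.5) for the 22 receptor probe sets of middle or high signal (rows) in the 12 arrays (columns). IPS trained 3 is the lowest array for GRIN1 (-1.1), GABRA2 (-1.09), GABRA3 (-0.80) and GABRA4 (-0.92).

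No receptor probe set passed an adjusted p of 0.05 in any comparison (limma, Benjamini-Hochberg over all probe sets tested). The same holds for the whole array in these fits, where 0% of 52766 probe sets were called in each of the 6 comparisons. At an unadjusted p under 0.05, training counted 0 receptor probe sets in IPS, where 3.27% of all probe sets reached it, and 1 of 42 in SII, against 3.87% of all. The average of both regions gave 2 of 42, against 3.48%. The difference of the training changes between regions gave 1 of 42, against 3.68%. These shares were at or near the background. The comparison of IPS with SII gave 6 of 42 over all arrays, against 9.26% of all probe sets, and 6 of 42 within the 4 animals, against 6.29%. Everything below is therefore given as measured values and intervals, and none of it passed the test.

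The comparison of regions asks which receptor genes differ between parietal tissue around IPS and the cortex around SII. Among the probe sets of middle or high signal, the lowest unadjusted p values fell on 3 GABA-A alpha subunits and on GRIA1, all lower in IPS. Of these 22 probe sets, 5 were lower in IPS at an unadjusted p under 0.05 and 0 were higher, against 4.73% lower and 5.49% higher among all 26180 probe sets of those classes. Several of the 5 rose and fell together over the arrays, so they are not independent readings. The median difference of the 22 was 0.02, with 11 higher and 11 lower, against a median of 0.04 for all probe sets of those classes. Within the 4 animals the median of the 22 was -0.14, against 0.04.

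GRIA1 encodes the AMPA subunit GluA1, whose insertion at synapses is a known step in potentiation. Its probe set MmuSTS.2505.1.S1_at lay at 0.16, -0.11 and -0.51 in IPS trained arrays, -0.22, -0.30 and -0.54 in IPS control arrays, 0.29, 0.60 and 0.05 in SII trained arrays, and 0.38, 0.08 and -0.05 in SII control arrays. IPS trained 1 was the only IPS array above 0, and the regions overlapped. IPS minus SII was -0.47 ± 0.17 (SE; limma adjusted p = 0.494), and -0.25 without the 3 arrays of raised hybridisation controls, a move of over 1.5 times.
The other GRIA1 probe set, MmugDNA.20338.1.S1_at, lay at 0.12, -0.07 and -0.49 in IPS trained arrays, -0.15, -0.45 and -0.42 in IPS control arrays, 0.29, 0.12 and 0.10 in SII trained arrays, and 0.02, -0.02 and 0.43 in SII control arrays. Again IPS trained 1 alone of the IPS arrays reached the SII range. Its regional difference was -0.40 ± 0.16 (SE; limma adjusted p = 0.509). Without the 3 arrays of raised hybridisation controls it stayed lower in IPS and moved less than the first probe set. Both probe sets were lower in IPS in 4 of 4 animals, with mean differences of -0.31 ± 0.18 and -0.45 ± 0.36 (SD, n = 4 pairs).

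GRIA4 is an AMPA subunit typical of fast-spiking interneurons. Of the 4 AMPA probe sets, only its high-signal one was higher in IPS over all arrays, the opposite sign to GRIA1. The contrast between the genes was not tested. This high-signal GRIA4 probe set, MmugDNA.7637.1.S1_at, lay at 0.26, 0.26 and -0.29 in IPS trained arrays, 0.10, -0.00 and 0.08 in IPS control arrays, 0.11, -0.27 and -0.23 in SII trained arrays, and -0.49, -0.33 and 0.00 in SII control arrays. IPS trained 3 and all 3 IPS control arrays lay within the range of the SII arrays, so the regions overlapped. IPS minus SII was 0.27 ± 0.16 over all arrays and 0.13 ± 0.18 within the 4 animals (SE), with 2 animals higher and 2 lower. GRIA4's second probe set, of low signal, was lower in IPS over all arrays and within animals, there at -0.60 ± 0.39 (SE). The mean of both GRIA4 probe sets differed by 0.02 ± 0.21 over all arrays and -0.23 ± 0.18 within the 4 animals (SE).

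GRIN1 encodes the subunit that every NMDA receptor needs. Its only probe set lay at -0.54, 0.61 and -1.1 in IPS trained arrays, -0.34, -0.56 and 0.04 in IPS control arrays, -0.24, 1.13 and 0.01 in SII trained arrays, and 0.50, -0.01 and 0.51 in SII control arrays. The regions overlapped, and the spread within both trained groups was wide. IPS minus SII was -0.64 ± 0.33 over all arrays and -0.71 ± 0.24 within the 4 animals (SE; limma adjusted p = 0.568 and 0.771). The 4 animals differed by -0.31, -1.12, -0.33 and -1.07. The all-array value was -0.23 without the 3 arrays of raised hybridisation controls and -0.39 in males alone. The other 5 NMDA probe sets, of GRIN2C, GRIN3A and GRIN3B, had low signal or floor values.

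Among the kainate and delta receptors, GRIK1 and GRIK2 carry kainate-activated channels, and GRID1 encodes a delta receptor that links synapses through extracellular proteins. GRIK1 (MmuSTS.4512.1.S1_at) differed by 0.21 ± 0.17 over all arrays (SE) and by 0.025 without the 3 arrays of raised hybridisation controls, and its 4 animals differed by -0.41, 0.18, 0.52 and 0.36. GRIK2 (MmugDNA.35699.1.S1_at) differed by 0.09 ± 0.32 (SE). GRID1's probe set MmuSTS.3653.1.S1_at was lower in IPS in 4 of 4 animals, with differences of -0.16, -0.44, -0.20 and -0.39, with an all-array difference of -0.17 ± 0.17. GRID1's other probe set, MmugDNA.23935.1.S1_at, ranged from -3.6 in SII control 2 to 0.94 in IPS trained 3, and its animals differed by 1.34, 0.74, 4.36 and -2.49, so the 2 GRID1 probe sets do not give 1 reading of the gene. GRM7 (MmugDNA.31046.1.S1_at) differed by -0.05 ± 0.35 over all arrays and by 0.10, -0.86, -0.92 and -0.22 in the 4 animals. Its lowest array was SII trained 2, at -1.54.

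Among the GABA-A alpha subunits, 3 had a probe set of middle signal, and all 3 lay lower in IPS over all arrays. GABRA3 (MmuSTS.4431.1.S1_at), an alpha subunit found in cortical and monoaminergic neurons, lay at -0.19, 0.19 and -0.80 in IPS trained arrays, -0.42, -0.57 and -0.27 in IPS control arrays, -0.25, 0.69 and 0.27 in SII trained arrays, and 0.82, 0.38 and 0.60 in SII control arrays. Only IPS trained 2 of the IPS arrays lay above 0, and only SII trained 1 of the SII arrays below it. IPS minus SII was -0.76 ± 0.22 (SE; limma adjusted p = 0.427), the smallest p among the 42. The value was -0.59 in males alone and -0.46 without the 3 arrays of raised hybridisation controls, a move of over 1.5 times.

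GABRA2, the alpha subunit enriched at the axon initial segment of pyramidal cells, was read by MmuSTS.4812.1.S1_at. It lay at -0.10, 0.51 and -1.09 in IPS trained arrays, -0.40, -0.78 and -0.99 in IPS control arrays, 0.18, -0.08 and 0.08 in SII trained arrays, and 0.08, 0.47 and 0.57 in SII control arrays. All 3 IPS control arrays lay below every SII array, and IPS trained 2 lay above 5 of the 6. IPS minus SII was -0.70 ± 0.26 over all arrays and -0.92 ± 0.24 within the 4 animals (SE; limma adjusted p = 0.494 and 0.771). The second GABRA2 probe set, of low signal, gave -0.00 and -0.10.

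GABRA4 (MmugDNA.20347.1.S1_at), an alpha subunit of receptors outside the synapse, lay at 0.03, 0.00 and -0.92 in IPS trained arrays, -0.12, -0.42 and -0.55 in IPS control arrays, 0.33, 0.10 and -0.16 in SII trained arrays, and -0.00, 0.16 and 0.83 in SII control arrays. The regions overlapped between -0.16 and 0.03. IPS minus SII was -0.54 ± 0.23 over all arrays and -0.65 ± 0.24 within the 4 animals (SE; limma adjusted p = 0.513 and 0.771). Without the 3 arrays of raised hybridisation controls, GABRA2 and GABRA4 stayed lower in IPS and moved less than GABRA3.

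Within the 4 animals, 8 of 42 receptor probe sets, of 7 genes, were lower in IPS in every animal, where 7.06% of all probe sets were, and 1 was higher in every animal, against 9.07% of all. The lower ones of middle signal were both GRIA1 probe sets, GRIN1, GRID1 (MmuSTS.3653.1.S1_at), GABRA2 and GABRA4, and the low-signal ones were GABRG3 and a GLRA3 probe set. The size differed between animals. GABRA2 differed by -0.28, -1.17, -0.87 and -1.35, GABRA3 differed by 0.06, -1.06, -0.79 and -1.17, and GABRA4 by -0.30, -0.76, -0.28 and -1.25, each in the order trained 1, trained 3, control 1 and control 2 of IPS. The animal of IPS trained 1 had the smallest gap for GABRA2 and GABRA3. It is also the only animal in which the actin 3' minus 5' difference was lower in the IPS array than in the SII array, and the part of RNA integrity in these gaps was not tested. No pairing of 4 animals can give an exact 2-sided permutation p below 0.125. The probe sets counted here are not independent readings. Over the 12 arrays, GABRA4 correlated at 0.92 with GRIA1 (MmugDNA.20338.1.S1_at), 0.86 with GABRA2 and -0.03 with GRID1 (MmuSTS.3653.1.S1_at). The median over 216 pairs of different genes of middle or high signal was 0.03.

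**Figure D2:**
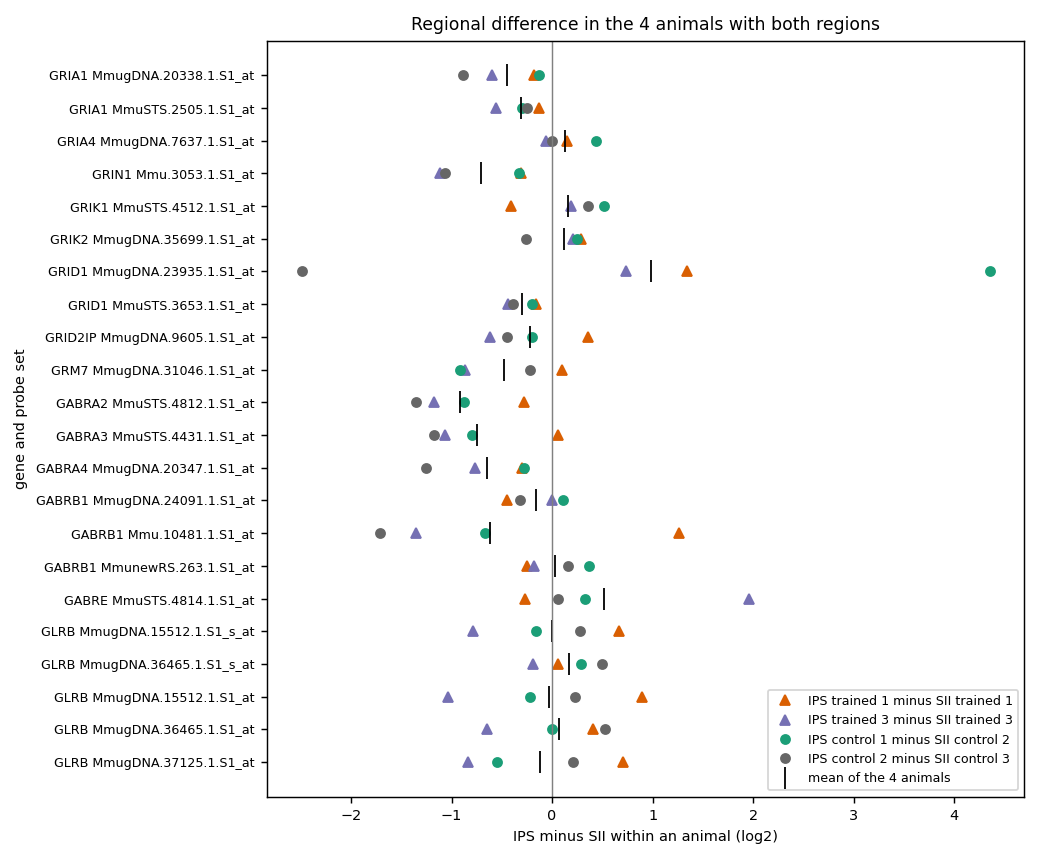
IPS minus SII (log2) within each of the 4 animals that gave both regions, for the 22 receptor probe sets of middle or high signal; triangles are trained animals, circles control animals, and bars the mean. GABRA2 ran from -1.35 to -0.28 and GRIA1 (MmuSTS.2505.1.S1_at) from -0.56 to -0.13, while the 5 GLRB probe sets lay on both sides of 0.

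The remaining GABA-A subunits gave no shared direction. GABRB1, a beta subunit, was read by 3 probe sets of middle or high signal, which differed between regions by -0.12 ± 0.14 (MmugDNA.24091.1.S1_at), -0.34 ± 0.36 (a probe set of middle signal) and 0.24 ± 0.18 (MmunewRS.263.1.S1_at) over all arrays (SE). The first had the smallest spread of all 42 probe sets, with an SD within groups of 0.16, and its 12 values lay between -0.29 and 0.39. The second lay between -0.84 and 1.04, both ends within the IPS trained group. GABRE, the epsilon subunit, ranged from -2.37 to 1.68 within the SII trained group alone. The low-signal GABRG3 was lower in IPS in 4 of 4 animals (-0.80 ± 0.29, SE) and the low-signal GABRR2, a rho subunit known best from retina, was higher in 4 of 4 (0.84 ± 0.29, SE). Over all arrays they differed by -0.08 and 0.17.

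Marker genes of cell types and neighbouring tissue, in probe sets of middle or high signal, were read beside these values. Excitatory neuron markers had a median regional difference of -0.15, with 5 of 7 probe sets lower in IPS. Among them SLC17A7 lay at -0.89 ± 0.29 and the TBR1 probe set MmugDNA.14844.1.S1_at at 0.28 ± 0.13 (SE). A second TBR1 probe set averaged -0.16 in IPS trained, -0.10 in IPS control, -0.16 in SII trained and 0.19 in SII control arrays. GABA neuron markers had a median of 0.09, with 4 of 9 lower. Microglia markers were lower in 6 of 6 probe sets, with a median of -0.42. Markers of neighbouring striatum and claustrum were lower in 6 of 8 probe sets, with a median of -0.22, NR4A2 being at -0.80 ± 0.22 and DRD2 (MmugDNA.6900.1.S1_s_at) at -0.78 ± 0.28 (SE). Endothelium and pericyte markers were higher in 3 of 3, with a median of 0.20, VWF by 0.95 ± 0.36 (SE). With the probe sets of low signal or floor values included, the median of all 8 was -0.23. Astrocyte markers were lower in 4 of 7 probe sets, oligodendrocyte markers in 2 of 4 and markers of their precursors in 4 of 5. Meninges markers were lower in 4 of 10, choroid plexus in 1 of 1 and hippocampus in 2 of 4. These values are over all arrays. Within the 4 animals, meninges markers were lower in 9 of 10 probe sets, with a median of -0.40. GABA neuron markers were lower there in 2 of 9 and precursor markers in 2 of 5, and the other marker counts were unchanged. The 3 endothelium and pericyte probe sets had a median of 0.06 within the 4 animals, and all 8 a median of -0.53. In tissue RNA, fewer cells of a type and less RNA per cell cannot be told apart, and the part of cell makeup or of neighbouring tissue in the receptor values was not tested. Of the partners of these receptors, 0 passed the test. The difference between regions was -0.87 ± 0.22 for CACNG4, an AMPA receptor auxiliary subunit, -0.68 ± 0.24 for GSG1L, another, and -0.75 ± 0.22 for DLG2, a scaffold protein of the NMDA receptor complex (SE, all arrays). At an unadjusted p under 0.05, 4 of 11 auxiliary probe sets, 5 of 35 scaffold probe sets and 1 of 17 inhibitory partner probe sets were lower in IPS, and 0 were higher, against 5.18% lower and 4.08% higher for all probe sets. The inhibitory partner was CLPTM1, which limits the delivery of GABA-A receptors to the cell surface. Its probe set MmugDNA.38353.1.S1_at lay at -1.14 ± 0.38 (SE, limma adjusted p = 0.471). Another CLPTM1 probe set, MmugDNA.13172.1.S1_at, did not share this direction. It averaged -0.05 in IPS trained, 0.02 in IPS control, 0.07 in SII trained and -0.35 in SII control arrays.

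GLRB encodes the glycine receptor beta subunit, which binds the scaffold that anchors inhibitory receptors, and it had 5 probe sets of middle or high signal. Their mean was 0.52, 0.17 and -0.51 in IPS trained arrays, 0.11, 0.12 and 0.12 in IPS control arrays, -0.03, -0.88 and 0.19 in SII trained arrays, and -0.83, 0.24 and -0.22 in SII control arrays. The 3 lowest means were those of the 3 arrays with raised hybridisation controls, and 2 of them are SII arrays. Outside those 3 arrays the mean ran from 0.11 to 0.52 in IPS and from -0.22 to 0.24 in SII. Over all arrays each of the 5 was higher in IPS, by 0.29 to 0.39, but within the 4 animals the means ran from -0.12 to 0.16 with 3 of 5 below 0. In males alone the 5 values ran from -0.12 to 0.21. Both of these readings still hold IPS trained 3, an array of raised hybridisation controls. Its animal differed by -0.79, -0.19, -1.04, -0.65 and -0.84 in the 5 probe sets. The animals of IPS trained 1 and IPS control 2 were higher in IPS for each of the 5, and that of IPS control 1 lay on both sides of 0. The alpha subunits GLRA1, GLRA2 and GLRA3, best known from spinal cord and brainstem, had low signal. GLRA1 was 0.98 ± 0.34 higher in IPS (SE; limma adjusted p = 0.478), with 3 of 4 animals higher.

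**Figure D3:**
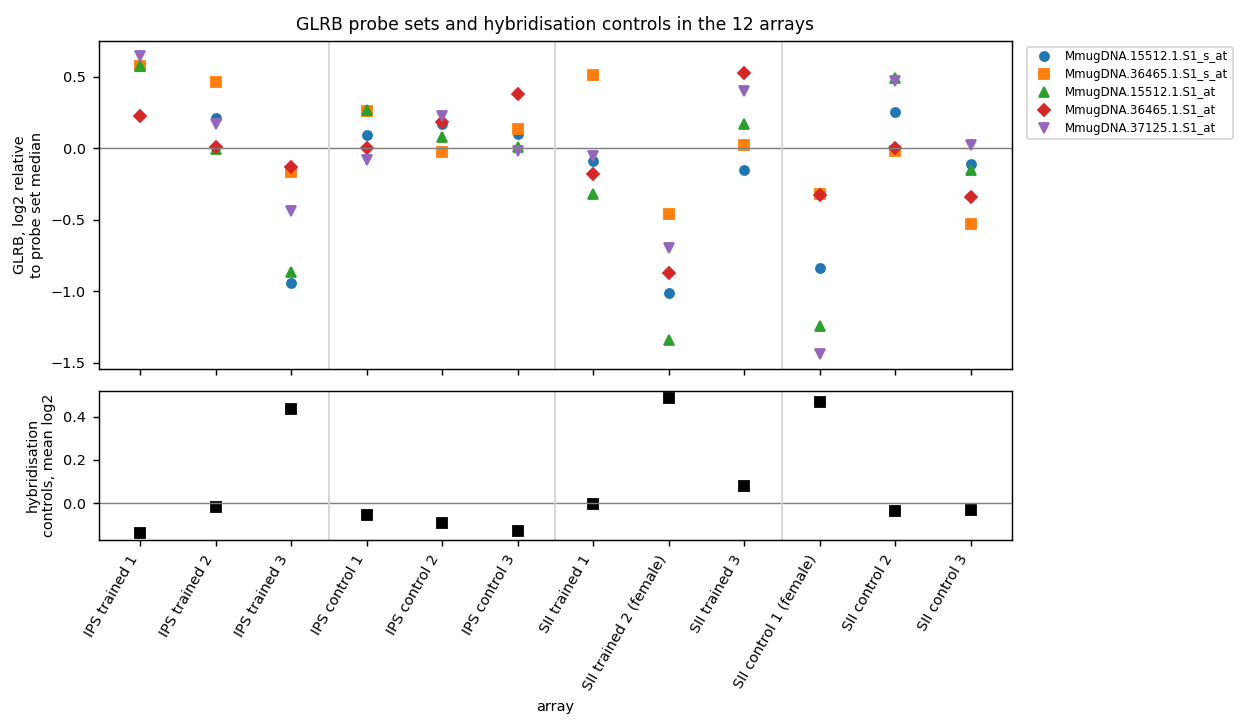
Upper panel, the 5 GLRB probe sets (log2 relative to each one's median) in the 12 arrays; lower panel, the mean of the hybridisation controls (log2). The arrays IPS trained 3, SII trained 2 and SII control 1 hold the lowest GLRB means (-0.51, -0.88 and -0.83) and the highest controls (0.44, 0.49 and 0.47).

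The comparison of trained with control animals asks whether receptor expression differs after tool-use training. Over the 42 probe sets the median trained minus control difference was 0.03 in IPS, with 24 higher and 18 lower, and 0.05 in SII, with 23 higher and 19 lower, against 0.01 and 0.06 for all probe sets. Groups did not overlap for 1 of 42 probe sets in IPS, against 9.49% of all, and for 1 of 42 in SII, against 7.08%. With 3 arrays against 3, an exact permutation test cannot give a 2-sided p below 0.10.

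None of the 4 AMPA probe sets passed the test for training. In IPS GRIA1 was 0.21 ± 0.25 (MmuSTS.2505.1.S1_at) and 0.19 ± 0.23 (MmugDNA.20338.1.S1_at) and GRIA4 0.02 ± 0.24 (MmugDNA.7637.1.S1_at). In SII the same 3 gave 0.18 ± 0.25, 0.03 ± 0.23 and 0.15 ± 0.24 (SE). The low-signal GRIA4 probe set gave 0.79 ± 0.51 in IPS and 0.07 ± 0.51 in SII. Leaving out 1 array moved GRIA4 (MmugDNA.7637.1.S1_at) in IPS between -0.07 and 0.19, with values below 0 without IPS trained 1, IPS trained 2 or IPS control 2. GRIA1 (MmugDNA.20338.1.S1_at) in SII moved between -0.05 and 0.17, with values below 0 without SII trained 1, SII control 1 or SII control 2. The 95% interval for GRIA1 (MmuSTS.2505.1.S1_at) in IPS ran from -0.35 to 0.76. GRIN1 differed by -0.05 ± 0.47 in IPS and -0.02 ± 0.47 in SII.

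GRIK1 was the member whose IPS groups did not overlap. It lay at -0.13, -0.35 and 0.13 in IPS trained arrays, against 0.23, 0.41 and 0.21 in IPS control arrays. The difference was -0.40 ± 0.24 in IPS and 0.16 ± 0.24 in SII (SE; limma adjusted p = 1.00 each). The difference between these changes was -0.56 ± 0.34, and its 95% interval ran from -1.31 to 0.20.

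The 3 GABA-A alpha subunits of middle signal did not pass the test for training in either region. GABRA2 differed by 0.50 ± 0.37 in IPS and -0.30 ± 0.37 in SII, GABRA3 by 0.16 ± 0.32 and -0.36 ± 0.32, and GABRA4 by 0.07 ± 0.33 and -0.23 ± 0.33 (SE). The differences between regions were 0.80 ± 0.52, 0.52 ± 0.44 and 0.31 ± 0.45, with limma adjusted p = 1.00 for each. Leaving out 1 array turned the sign of the IPS value of GABRA3 without IPS trained 2, at -0.07, and of GABRA4 without IPS trained 1, IPS trained 2 or IPS control 3, down to -0.09. The SII value of GABRA4 was 0.01 without SII control 3. The IPS trained group held both the highest GABRA2 value of an IPS array, 0.51 in IPS trained 2, and the lowest, -1.09 in IPS trained 3. Without the 3 arrays of raised hybridisation controls, the GABRA2 change in IPS was 0.92, over 1.5 times the value with them. GRM7 differed by 0.08 ± 0.50 in IPS and -0.60 ± 0.50 in SII, and the SII value was 0.015 without SII trained 2.

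**Figure D4:**
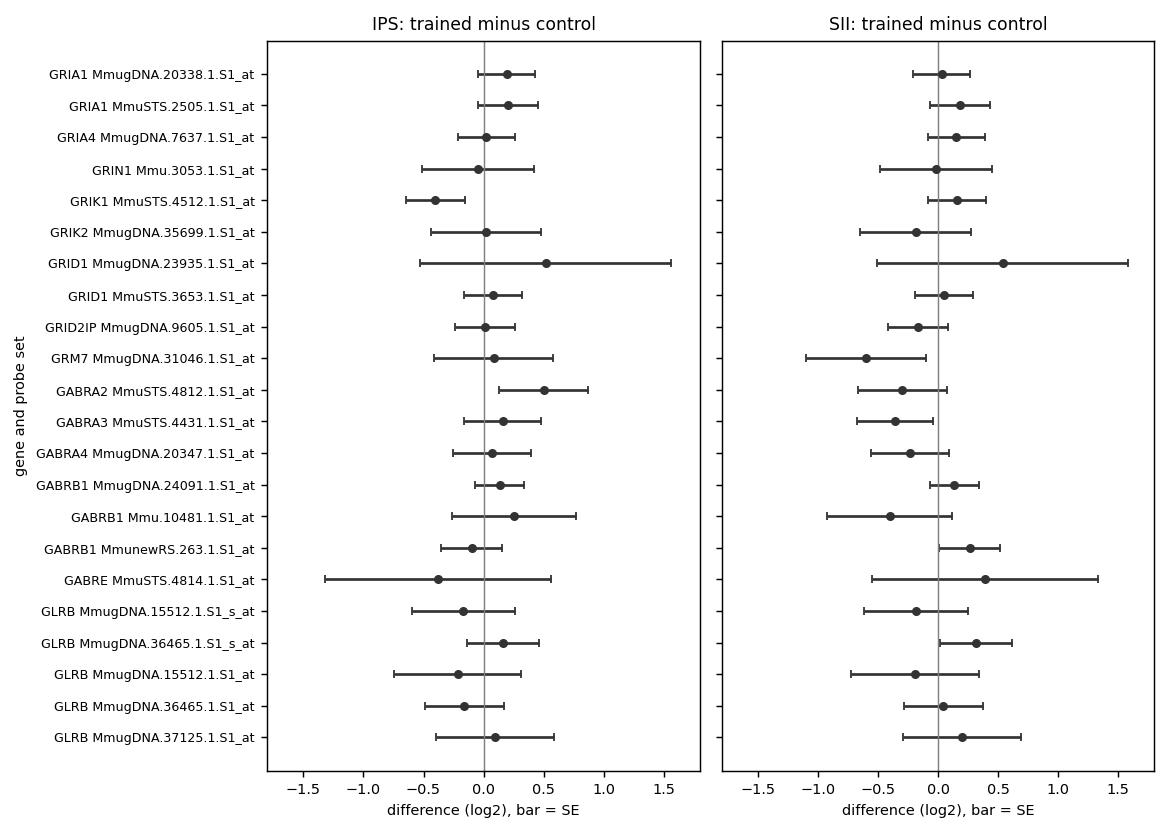
Trained minus control (log2, points) with SE (bars) in IPS (left) and SII (right) for the 22 receptor probe sets of middle or high signal. GRIK1 in IPS (-0.40 ± 0.24) and GRM7 in SII (-0.60 ± 0.50) are the lowest points of their panels, and no probe set passed the test.

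The members that reached an unadjusted p under 0.05 for training had low signal or floor values. GABRR1, a rho subunit, lay at 0.80, 1.76 and -0.09 in SII trained arrays and -1.66, -2.38 and -0.22 in SII control arrays, 1 of which was at the floor. In IPS it lay at 0.22, 0.72 and -2.02 in trained arrays, 1 at the floor, and 0.00, -0.00 and 0.26 in control arrays. GRIN3A, an NMDA subunit that lowers calcium entry, was at the floor in 6 of 12 arrays, 1 and 2 of them in IPS trained and IPS control arrays and 1 and 2 in SII trained and SII control arrays. A floor value is an upper limit, so no fold is given for either. The GLRA3 probe set MmugDNA.14845.1.S1_at averaged 1.16 ± 0.51 higher in trained animals (SE), while GLRA3's other 3 probe sets averaged -0.63 to 0.18.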

How the data were processed

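The authors deposited log2 values that are centred by row: every probe set has a median of 0 on the 12 arrays. The base of the logarithm was inferred from the range. MAS5 is named, without a version, per the submitters' processing notes. The scaling of arrays was not given in the sources used here. No further scaling was applied. Of 52865 probe sets, 99 controls were left out. By the platform's gene annotation, 24956 of the rest had 1 symbol, 361 several and 27449 none. The floor (18.8% of probe sets, in at least 2 arrays) and the signal classes were recovered from shared differences between arrays and from number spacing.

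The model, run for all probe sets with limma 3.58.1 under R 4.3.3 and statmod 1.5.0, had 4 group means and an animal correlation of 0.0474, or, for the 4 animals, with animal as a fixed block. Tests were 2-sided with Benjamini-Hochberg adjustment over all 52766, at 0.05. The fit was tested on simulated data. Precision is limited by the number of arrays. Nothing in the labels says that arrays of a group are technical repeats.

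The members and gene lists were chosen with earlier results of these data known. By rule, the text names the 2 probe sets with the smallest p in each receptor class among those of middle or high signal, and the other probe sets of those genes. GABRA4, the floor and low-signal genes, the partner and marker genes and the grouping of alpha subunits were named after their values were seen. So were the counts at an unadjusted p under 0.05, used because nothing passed the adjusted test, and the counts of animals with the same direction. The code that reads the signal classes from number spacing was corrected 2 times before these fits. Alternatives were quantile normalization, median centring, array weights, no animal correlation, a replicate block, males alone, age, signal filter, each region alone, gene means, each array left out, and, added after seeing the data, a fit without the 3 arrays of raised hybridisation controls. Replicate numbers match the animal for only some of the arrays. Residuals of same-numbered arrays correlated at -0.20 to 0.06 over 18 pairs. The 4 pairs from the same animal gave -0.09 to 0.06, so this reading cannot tell whether arrays are paired. No column was left unused.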

Additional observations from a re-analysis of the deposited data

Results flagged for a closer look

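GRIK2 (MmugDNA.35699.1.S1_at) had 1 animal far from the others in the comparison of IPS with SII. The animals of IPS trained 1, IPS trained 3 and IPS control 1 differed by 0.28, 0.21 and 0.25 log2 units, and the animal of IPS control 2 by -0.26. The gap to the nearest animal was 0.861 of the whole range, above Dixon's critical value for 4 samples. Of the 22 probe sets of middle or high signal examined this way it was the only one, and chance flags about 1 in 20 such groups.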

How the results depend on the processing

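The count of receptor probe sets called was 0 in all 6 comparisons and 0 under each of the 122 alternative fits, the smallest adjusted p of a named probe set being 0.209. Over the whole array the count was 0 in the reported fits and 0 to 14 under alternatives, the 14 being IPS minus SII without SII trained 3. At an unadjusted p under 0.05, leaving out 1 array gave 2 to 8 receptor probe sets for IPS minus SII over all arrays, and leaving out 1 animal gave 0 to 7 within the 4 animals, against 6 each. With the replicate block the count of receptor probe sets called was 0, and the block changed no call. The labels' numbers match the animal for only some of the arrays. Of 60 named values, 35 kept their sign under every alternative run, and 1155 of 1220 alternative values did.

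The sign turned as follows; the cause was not tested. Gene means average other probe sets of the gene as well. In SII training, GABRB1 (MmunewRS.263.1.S1_at) was -0.00284 and GLRB (MmugDNA.15512.1.S1_s_at) 0.039 with gene means. Leaving out 1 array gave -0.43 to 0.22 for GRIN1, -0.00363 to 0.32 for GRIK1, -0.70 to 1.40 for GRID1 (MmugDNA.23935.1.S1_at), -1.07 to 0.015 for GRM7 and -0.48 to 0.11 for GLRB (MmugDNA.15512.1.S1_s_at). In IPS training, GRIN1 was 0.10 with array weights, 0.083 with age and 0.33 without the 3 arrays of raised hybridisation controls, GRM7 was -0.20 with age, and GLRB (MmugDNA.36465.1.S1_s_at) was -0.060 with gene means. Leaving out 1 array gave -0.53 to 0.37 for GRIN1, -0.28 to 1.03 for GRID1 and -0.00463 to 0.20 for GRM7. In the average over regions, GLRB was -0.010 (MmugDNA.36465.1.S1_s_at, gene means) and 0.035 (MmugDNA.15512.1.S1_s_at, without the 3 arrays). Leaving out 1 array gave -0.28 to 0.18 for GRIN1, -0.081 to 0.96 for GRID1, -0.50 to 0.057 for GRM7, -0.010 to 0.16 for GABRB1 and -0.33 to 0.045 for GLRB.

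For the difference of training changes, GRIA4 was 0.080 without the 3 arrays and 0.31 with gene means, and GRIK2 was -0.39 with gene means. GRIN1 was 0.13 with quantile normalization, 0.016 with median centring, 0.32 with array weights, 0.30 in males alone, 0.19 with age and 0.67 without the 3 arrays. Leaving out 1 array gave -0.27 to 0.042 for GRIA4, -0.49 to 0.38 for GRIN1, -0.20 to 0.56 for GRIK2, and -0.54 to 0.17 and -0.39 to 0.11 for GLRB. For IPS minus SII over all arrays, leaving out 1 array gave -0.35 to 0.14 for GRM7. Within the 4 animals, gene means gave 0.34 for GRID1 and 0.016 for GLRB (MmugDNA.37125.1.S1_at), and leaving out 1 animal gave -0.14 to 2.14 for GRID1 (MmugDNA.23935.1.S1_at) and -0.39 to 0.12 for GLRB.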
